A study of Mus musculus with 3 samples.

Results

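The subject of this report is the Nkx2-5 locus, a stretch of 200 kb of mouse chromosome 17 with the Nkx2-5 gene near its middle, and the places in it that were called as bound by YY1 in cardiac progenitor cells. The members are all peak intervals that overlap mm9 chr17:26875000-27075000 by at least 1 bp. There were 8 of them among the 115109 intervals of replicate 2 and 0 among the 3691 intervals of replicate 1. The gene was taken to lie near chr17:26975600-26978500 on the minus strand, so that higher coordinates are upstream of it. This position is approximate, and distances from the gene below carry the same uncertainty.

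YY1 chromatin immunoprecipitation and sequencing (ChIP-seq) was carried out on progenitors of a C57BL/6 mouse embryonic stem cell line, which were differentiated for 6 days as embryoid bodies and then sorted by fluorescence. The sorted cells expressed enhanced green fluorescent protein from a transgene driven by Nkx2.5. Both ChIP samples and the input came from such cells; the 2 ChIP samples were sorted independently and precipitated with the same anti-YY1 antibody, and the 1 input had no antibody. The aim of the profiling, per the series design, was to find putative YY1 target genes in these cells. Wherever the transgene carries regulatory sequence of Nkx2-5, its copies and the chromosomal locus cannot be told apart in a list of mapped peaks, and how much of it the transgene holds was not known here. Peak lists hold no expression values, so the labelled cell type was not checked against markers.

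Nkx2-5 is a homeodomain transcription factor that acts early in the heart lineage, together with GATA4 and TBX5, and is needed for heart development. It is switched on in cardiac progenitors through several enhancers, of which the best known is a GATA-dependent cardiac enhancer upstream of the gene, inside the band from 7 to 10 kb from its start. YY1 is a zinc-finger protein that binds DNA at sites with the core CCAT, sits at many promoters and enhancers, and can activate or repress its targets.

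In the GRCm38 gene order, the 3 genes on the lower-coordinate side of Nkx2-5 were Bnip1, which encodes a SNARE protein of membrane fusion, then Crebrf, a regulator of the CREB3 transcription factor, and Atp6v0e, a subunit of the vacuolar proton pump. The 3 on the higher-coordinate side were LOC115488773 and Gm17382, both annotated as long noncoding RNAs, and the pseudogene Gm29819. The nearest protein-coding gene on that side, named outside the rule for neighbours, was Kifc5b, a kinesin. Only the order of genes was used, and intervals were not assigned to these neighbours.

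The start of the gene lies in the stretch where neither list had an interval, and the sequence just before it is shown so that its YY1 core letters can be seen. It is the RefSeq sequence of the 250 bases upstream of the Nkx2-5 start, in build GRCm38.p6, minus strand, chr17:26841566-26841815, printed 5′ to 3′ with CCAT in capitals. These coordinates belong to a different build from the intervals and cannot be set against them.

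Nkx2-5 upstream: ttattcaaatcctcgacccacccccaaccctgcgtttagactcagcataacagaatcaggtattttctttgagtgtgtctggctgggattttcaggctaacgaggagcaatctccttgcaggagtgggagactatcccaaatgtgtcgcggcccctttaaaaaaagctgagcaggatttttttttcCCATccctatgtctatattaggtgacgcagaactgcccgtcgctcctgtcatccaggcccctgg

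CCAT was searched on both strands and was found once in these 250 bases, starting at position -64 on the printed strand, where -1 is the base before the start of transcription. A core this short is common: 77.4% of the 32851 RefSeq promoter sequences held it in their upstream 250 bases. The longer core GCCAT, which contains CCAT, was not found in the upstream bases, where 32.9% of promoter sequences held it. It was found once in the 50 bases past the start, on the opposite strand, and 40.5% of promoter sequences held it somewhere in their full 300 bases. The 8-letter form GCCATNTT was not found in the 300 bases, and 6.05% of promoter sequences held it. These are matches of letters and not sites of binding.

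No YY1 interval was called at the Nkx2-5 gene or at its upstream cardiac enhancer band in either sample. The gene itself, 2.9 kb long, held 0 intervals in replicate 1 and 0 in replicate 2. The band 7 to 10 kb upstream also held 0 in both, as did the whole 10 kb upstream and the 10 kb downstream of the gene. Stretches without a call are the usual case on chromosome 17, so the count of 0 does not set the gene apart from stretches of its length. The stretches were tiled along the chromosome without regard to genes. The shares below therefore do not say how often a gene or an enhancer had no call. Of chromosome 17 stretches as long as the gene, 87.7% held no replicate 2 interval and 99.6% held no replicate 1 interval. For stretches as long as the enhancer band the shares were 87.3% and 99.6%. For stretches of 12.9 kb, the gene and 10 kb upstream together, they were 59.3% and 98.4%.

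**Figure D1:**
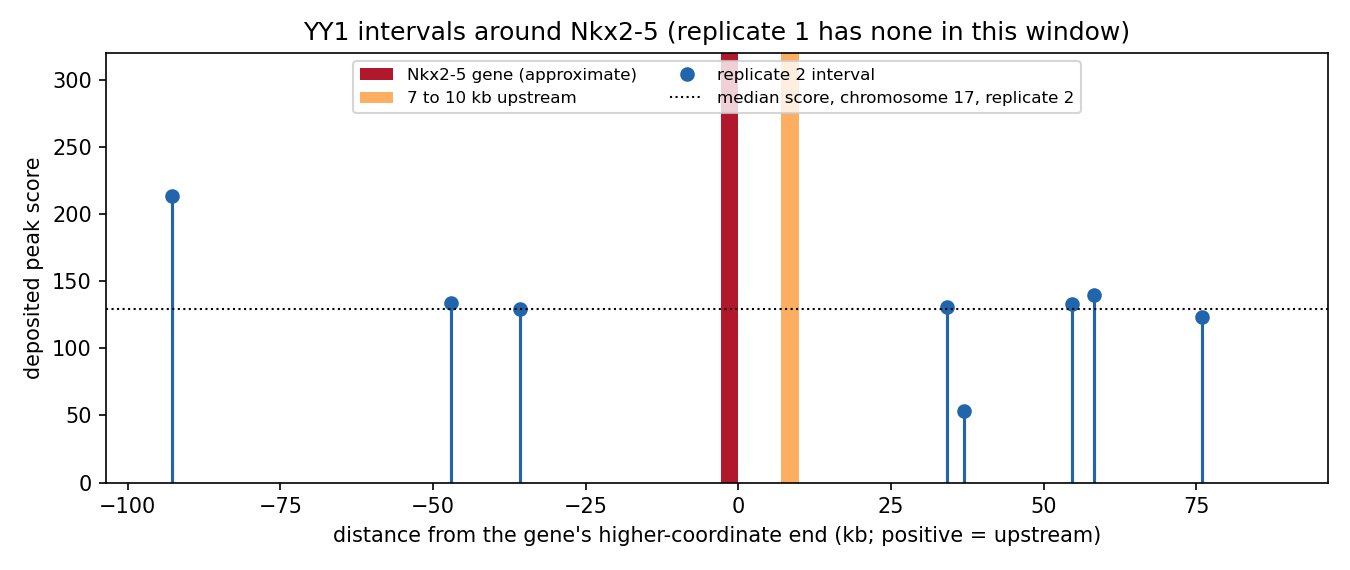
Position of the 8 replicate 2 intervals by distance from the upstream end of Nkx2-5 (horizontal axis, kb, upstream positive) and their deposited peak score (vertical axis). The gene (red) and the band 7 to 10 kb upstream (orange) lie in a stretch of 69.97 kb without an interval, and 6 of the 8 scores lie between 120 and 140, near the dotted chromosome 17 median of 129.01.

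The gene sat inside a stretch of 69.97 kb, chr17:26942735-27012704, in which replicate 2 had no interval. The nearest interval was 32.9 kb away on the downstream side and 34.2 kb away on the upstream side, so that the gene lay close to the middle of the stretch. The stretch was longer than most on the chromosome, where the median distance between neighbouring intervals was 11.6 kb and 5.75% of 4294 such stretches were at least as long. A gene is more likely to fall in a long stretch than in a short one, and by length the comparison is closer: 29.6% of the bases between intervals of chromosome 17 lay in stretches at least as long as this one.

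The 5 upstream intervals lay between 34.2 and 75.9 kb from the gene. The nearest, chr17:27012705-27012748, was 44 bp wide with a peak score of 130.57. It was followed after 2.80 kb by chr17:27015547-27015590, also 44 bp wide, which had the lowest score of the 8, 53.37, close to the lowest score in the replicate 2 list, 50.01. Next came chr17:27033132-27033197, the widest of the 8 at 66 bp, with a score of 133.32, and 3.63 kb beyond it chr17:27036825-27036879 with 55 bp and a score of 139.61. The farthest was chr17:27054379-27054421, the narrowest of the 8 at 43 bp, which scored 123.43. The first 4 thus lay in pairs, with spacings of 2.80 and 3.63 kb beside a chromosome 17 median of 11.6 kb. How common spacings this short are on the chromosome was not examined. All 5 upstream intervals were outside the 10 kb next to the gene.

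The 3 downstream intervals were 11.2 and 45.6 kb apart, and the upstream ones 2.80 to 17.5 kb. The one nearest to the gene, chr17:26942685-26942734, was 50 bp wide and scored 129.01. At 44.1 kb from the gene, chr17:26931437-26931484 was 48 bp wide and scored 133.99. The strongest of the 8 was also the most distant, chr17:26885752-26885799, which was 48 bp wide, scored 213.42 and lay 89.8 kb downstream. Over the 7 spacings inside the window the median was 17.5 kb.

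Of the 8 scores, 6 lay near the median of their list, and none was above 213.42. The peak score is the authors' value from the peak caller MACS, in which a higher value is a stronger call. It was ranked only within a list. The strongest of the 8 intervals was above 79.4% of the 4295 chromosome 17 intervals and ranked 23164 in the whole list. As the top score of a window, its 213.42 was low. Of the 372 other chromosome 17 windows with at least 5 intervals, 11.0% had a lower top score, and the median was 379. These windows were not matched to the locus for number of intervals, on which a top score depends. The weakest interval was above 1.05% of the chromosome 17 intervals. The other 6 were above 45.4 to 54.3% of the chromosome 17 intervals, so they stood at the middle of the distribution. Scores between 120 and 140 belonged to 12.6% of all chromosome 17 intervals and, among the 2410 that were 43 to 66 bp wide, to 16.1%. The score 129.01, which is the list's median, was held by 3897 intervals of the list, 139.61 by 3261 and 133.99 by 904. Such repeated values do not rank the intervals that hold them.

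The median width of the 8 intervals was low. Their widths were 43 to 66 bp, a range that holds 56.1% of the chromosome 17 intervals, with a median of 48 bp. Of the 8, 7 were narrower than the chromosome 17 median of 61 bp, and the widest was wider than 57.5% of the chromosome 17 intervals. The narrowest interval of the list was 39 bp wide. Of the 372 other 200 kb windows of chromosome 17 that held at least 5 replicate 2 intervals, 0 had a lower median width and 1 had the same. The median of those window medians was 61.5 bp (interquartile range 57 to 67.5 bp). The widest member, 66 bp, was also low for the widest interval of a window, since 3 of the 372 windows had a lower value and 2 the same, against a median of 138 bp. An interval over 200 bp was present in 22.5% of the other 458 windows and not in this one. Neither of these comparisons was matched for number of intervals, on which the widest interval of a window depends.

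**Figure D2:**
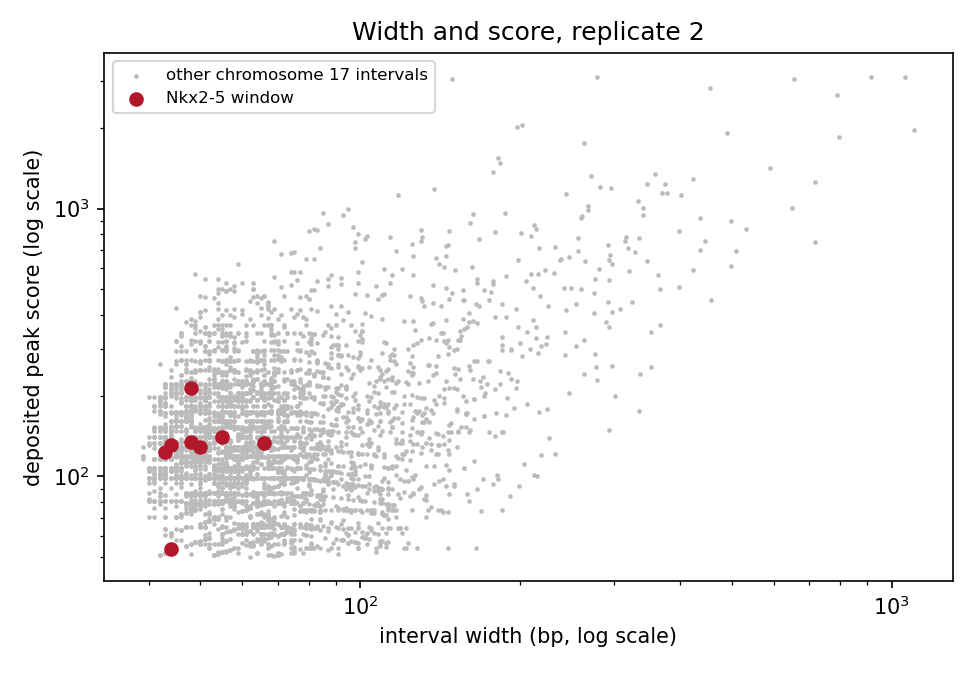
Width (horizontal axis, bp, log scale) against deposited peak score (vertical axis, log scale) of the replicate 2 intervals of chromosome 17, with the 8 intervals of the Nkx2-5 window in red. The red points lie at widths of 43 to 66 bp, 7 of them below the chromosome 17 median of 61 bp, with scores from 53.37 to 213.42 and none in the tail of wide, high-scoring intervals.

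This place by width held for the window and not for its wider surroundings. With windows of 400 kb the Nkx2-5 window held 18 intervals with a median width of 58 bp, and 33.2% of the 223 other windows were as low. Among 10151 autosomal windows of 200 kb with at least 5 intervals, 1.31% had a median width of 48 bp or less. Windows on 1 chromosome share a library and are not replicates, so these places are descriptions and carry no p-value, and the widths were noticed before they were compared.

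The number of intervals was close to that of a typical window. Replicate 2 had 8 intervals in the Nkx2-5 window and a median of 9 in the 458 other complete 200 kb windows of chromosome 17 (interquartile range 6 to 12, range 0 to 30). More intervals were held by 246 windows (53.7%), the same number by 33 (7.21%) and fewer by 179 (39.1%). The difference of 1 interval from the median was smaller than the spread between windows (SD 5.20 over the 458). The window with the most, chr17:30875000-31075000, held 30.

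**Figure D3:**
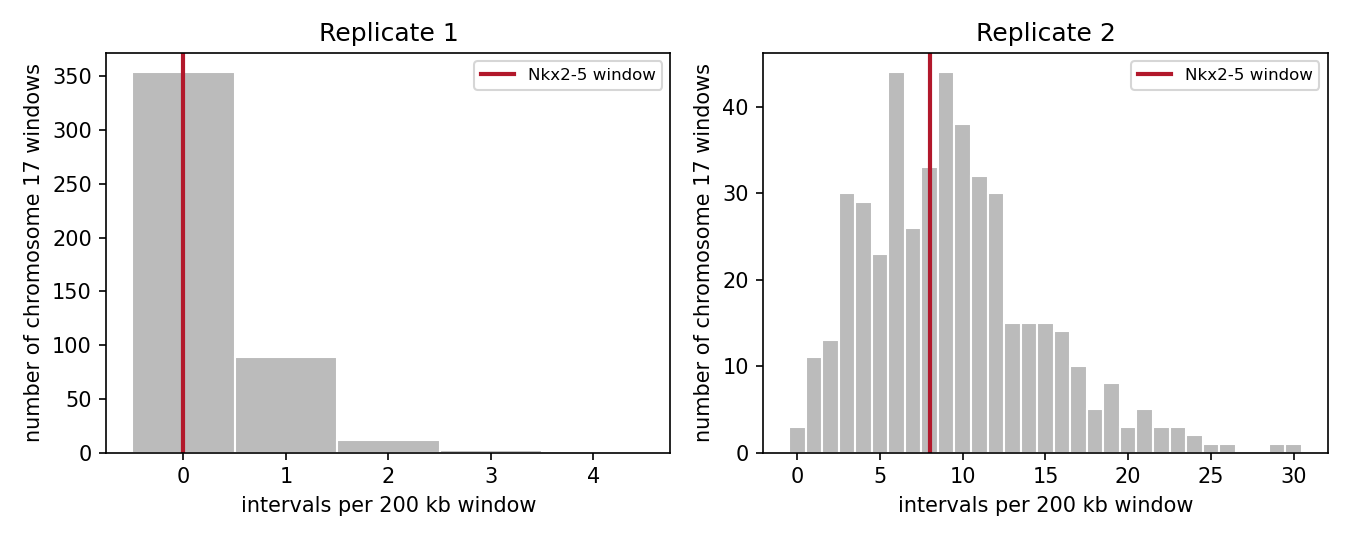
Number of intervals in each 200 kb window of chromosome 17 (horizontal axis) and number of windows with that count (vertical axis), for replicate 1 and replicate 2, with the Nkx2-5 window as a red line. The red line stands at 0 in replicate 1, where 77.3% of the other windows stand too, and at 8 in replicate 2, next to the median of 9.

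The intervals covered few bases for their number. The 8 intervals covered 398 bp, or 0.199% of the window, and 73.6% of the other windows covered more (median 629.5 bp). Among the 33 windows that also held 8 intervals, the covered length ranged from 441 to 1078 bp with a median of 543 bp, so that the Nkx2-5 window lay below all 33. The median widths of these 33 windows ranged from 50 to 103.5 bp. At an equal number of intervals, covered length depends only on their widths. The low covered length is therefore the low width again and not a separate result.

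**Figure D4:**
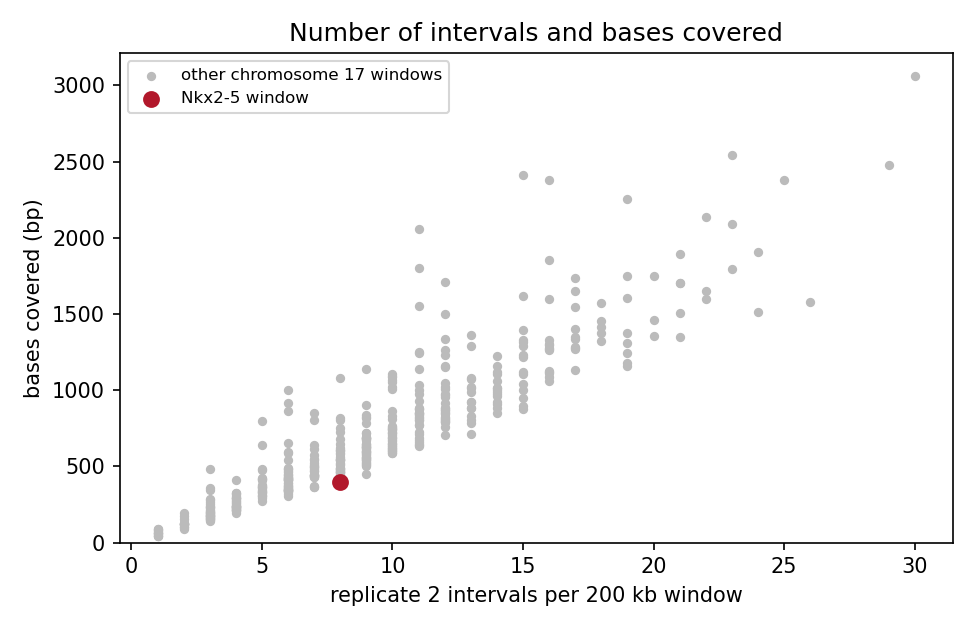
Replicate 2 intervals per 200 kb window (horizontal axis) against the bases they cover (vertical axis, bp) for the chromosome 17 windows with at least 1 interval. The Nkx2-5 window (red, 8 intervals and 398 bp) lies at the lower edge of the windows with the same count, which cover 441 to 1078 bp.

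The windows next to the locus held more intervals than the locus itself. The adjoining window on the downstream side held 12 replicate 2 intervals with a median width of 71 bp, and the one on the upstream side held 14 with a median width of 62.5 bp. Within 2 Mb on each side the 20 windows held 3 to 15 with a median of 10, and 14 of the 20 held more than 8. The Nkx2-5 window thus stood inside the range of its surroundings.

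**Figure D5:**
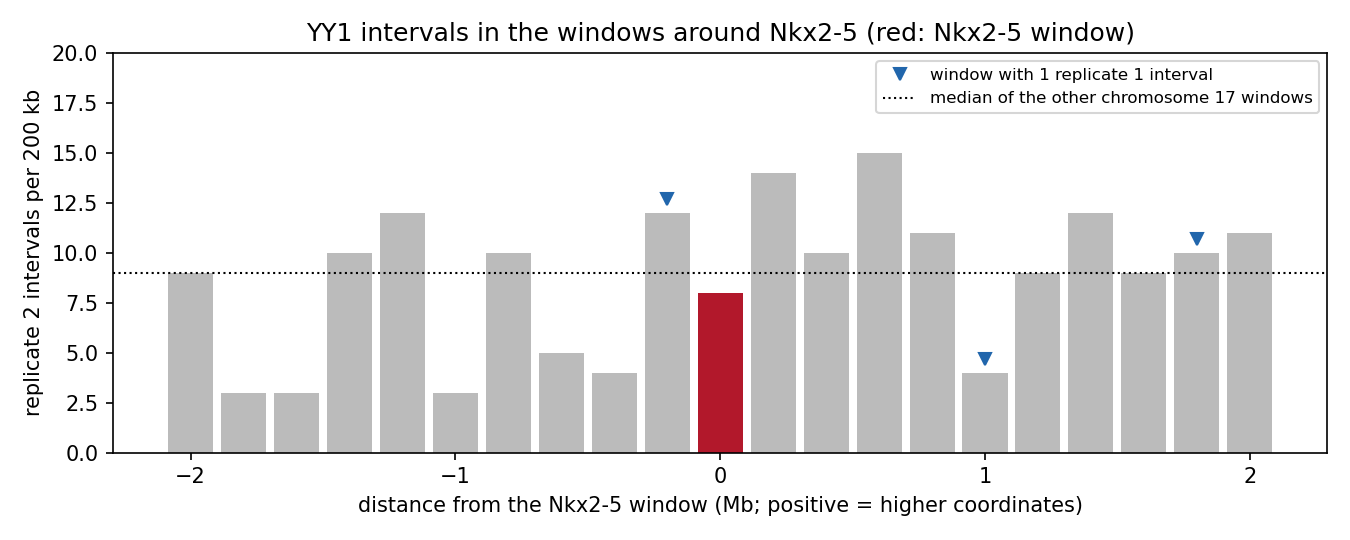
Replicate 2 intervals per 200 kb window (bars, vertical axis) by distance from the Nkx2-5 window (horizontal axis, Mb). The Nkx2-5 bar (red, 8) lies between neighbours of 12 and 14 and just under the dotted chromosome 17 median of 9, and triangles mark the 3 windows that hold 1 replicate 1 interval each.

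Replicate 1 had no interval in the window, which is the common case for that list. Of the other 458 windows of chromosome 17, 77.3% held no replicate 1 interval, and the most in any was 4. The 2 lists differ widely in length, so 0 against 8 cannot be read as a difference in binding. None of the 8 replicate 2 intervals was therefore found in both samples, where 1.26% of the whole replicate 2 list and 1.09% of its chromosome 17 intervals overlapped a replicate 1 interval. Of the other chromosome 17 windows, 9.61% held a replicate 2 interval that did. Of the 33 windows with 8 replicate 2 intervals, 4 held a replicate 1 interval.

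The nearest replicate 1 interval to the gene lay outside the window, 130.2 kb downstream, at chr17:26845355-26845415. It was 61 bp wide with a score of 54.02, which was above only 4.09% of the replicate 1 list. It was contained in a replicate 2 interval, chr17:26845346-26845427, which was 82 bp wide and scored 838.75, above 98.8% of the replicate 2 list. The place nearest to Nkx2-5 that both lists called was therefore low by rank within replicate 1 and high by rank within replicate 2. The lists differ widely in length, so the ranks are not on a common scale. How usual such a contrast is among shared intervals was not examined. On the upstream side the nearest replicate 1 interval was 974 kb away, at chr17:27952054-27952131, with a score of 60.86 and no overlap with replicate 2. The stretch of 1107 kb between them, in which Nkx2-5 lies, was not unusual for the sparse list, since 57.7% of the bases between replicate 1 intervals of chromosome 17 lay in stretches at least as long. Read totals are unknown here, so a place without an interval cannot be called unbound.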

How the data were processed

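The deposited files are 1 interval list for each of the 2 YY1 ChIP samples; per the file headers, the authors called peaks with MACS in Galaxy, and the value of each interval is the MACS peak score as deposited. Coordinates are in mm9, which the submitters' processing notes name. The sources used here do not give the aligner, the version and settings of MACS or how its score was computed. The input was not analysed here. The depth of each sample is unknown, and the number of intervals a list holds depends on it.

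Interval starts were read as 0-based, as is usual for BED files, and are printed 1-based. Chromosome 17 was tiled into 200 kb windows in step with the locus, between its first and last interval. Places among windows with at least 5 intervals were used for widths and top scores, a minimum chosen after seeing the data. No test was made, since a single locus in 2 lists gives none; shares of windows are descriptions. All intervals in the window and the nearest on each side were named, with the fullest chromosome 17 window and the adjoining ones. The locus, the lists and the bands were chosen with earlier results of these data known. Window counting was tested on simulated data. Promoter sequences and gene order are from RefSeq (GRCm38.p6), where Nkx2-5 was matched by symbol. Scripts ran in Python 3.11.15 with pandas 2.3.3, SciPy 1.17.1, matplotlib 3.10.9 and NumPy 2.4.6.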

Additional observations from a re-analysis of the deposited data

How the results depend on the processing

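The 8 results on the locus were recomputed under 33 alternatives. The count of 8 replicate 2 intervals was the same by midpoint and after merging intervals closer than 500 bp; it was 5 in the 50% of the list with the highest score and 1 in the highest 25%, because fewer intervals were left. The covered length was 261 bp in the highest 50%. That cut fell among the 3897 intervals tied at a score of 129.01, and the order of chromosomes decided which of them were kept. The interval chr17:26942685-26942734, with this score, was left out in this way. All values given here for the highest 50% depend on that order. The replicate 1 count of 0 became 1 in a 400 kb window, which takes in the interval 130.2 kb downstream. The share of windows with more intervals, 53.7%, was 32.8% in the highest 50% by score, 63.8% in the highest 25%, 62.0% among windows within 5 Mb, 45.9% with 100 kb windows and 48.7% with 400 kb windows; the locus stayed inside the bulk of windows, and the cause of these shifts was not tested. The stretch without an interval around the gene, 69.97 kb, was 81.22 kb in the highest 50% and 239 kb in the highest 25%. The share of bases in stretches as long, 29.6%, was 49.9% in the highest 50% and 31.4% in the highest 25%. The median width was 48 bp in the highest 50% as well; merging changed none of the 8 intervals and the highest 25% left 1, so neither bears on its stability. The share of windows with as low a median width, 0.269%, was 1.86% with at least 3 intervals, 0.0% with at least 8 and 33.2% with 400 kb windows. The alternatives for the stretch and for the place by width were chosen after seeing the data. The values are given per list, so leaving out a replicate leaves the value of the other list. No paired analysis was possible because the results come from no test and the input has no list here.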
